A study of Mus musculus with 4 samples.

Results

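Chemokines and chemokine receptors were examined in RNA-Seq data from mammary tissue of virgin mice with and without miR-21. The members were set by a rule on gene names, as every name made of Ccl, Ccr, Cxcl, Cxcr, Cx3cl, Cx3cr, Xcl or Xcr followed by a number and at most 1 letter. This gave 56 of the 22479 gene names in the deposited table, of which 37 are chemokines and 19 are receptors. Where a name stood on several lines of the table, the line with the highest mean of both genotypes was used.

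The glands came from 2 miR-21+/+ and 2 miR-21-/- mice of a mixed 129SV::FVB/N::C57BL/6 background, all 2 months old according to the labels. The samples are whole mammary tissue, and the sources used here do not describe the deletion as limited to a cell type. They also do not say which gland pair was dissected. The deposited table holds 1 FPKM value for each genotype, made by the authors from both of its mice. FPKM is the number of sequenced fragments assigned to a gene, divided by its exon length and by the size of the library, so levels of different genes can be compared. Because mice cannot be separated, no value below has a replicate error and no test was run. All ratios are of the miR-21-/- value over the miR-21+/+ value, as plain ratios without a pseudocount.

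Chemokines are small secreted proteins that guide migrating leukocytes, and their names follow the spacing of the first cysteines (C, CC, CXC and CX3C). They act on receptors of the G protein-coupled class, and a given receptor often accepts several chemokines. In the virgin gland, macrophages and eosinophils gather around the growing ducts, and the eosinophil attractant eotaxin (Ccl11) and the macrophage growth factor pathway are needed for normal branching. In lymphoid tissue, stromal chemokines hold T cells, dendritic cells and B cells in separate zones, with Ccr7 and Cxcr5 as the receptors.

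The mature microRNA removed in the miR-21-/- mice is shown first because its seed defines which member transcripts could pair with it. RefSeq places miR-21a-5p on the minus strand at chr11:86584120-86584141 of GRCm38.p6, and the capitals mark its seed, bases 2 to 8.
miR-21a-5p: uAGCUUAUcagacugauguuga
Of the 53 members with an annotated 3′ UTR in mm9, 11 (20.8%) held a match to this seed. A match was ATAAGCT, the complement of the whole seed, or TAAGCTA, the complement of bases 2 to 7 followed by A. Among all 18775 genes of the table with an annotated 3′ UTR the share was 9.87%. Within 299 to 1597 nt, the middle range of the 3′ UTR lengths of the members, 5 of 27 members (18.5%) and 6.16% of 8635 genes held a match. The members with a match above 1 FPKM were Ccl22, Ccl25, Ccl9, Cxcl9, Cxcr6, Cxcl10 and Cxcl12, or 7 of 36 (19.4%), against 11.2% of 13029 genes at that level. The other 4, Ccl1, Ccl20, Ccl3 and Xcr1, did not exceed 1 FPKM in either genotype. A match is a run of letters and not evidence of binding.

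The matches of the members above 5 FPKM, and of Cxcr6, are printed with 6 bases on either side in mm9, read in the direction of transcription, with the match in capitals. That of Ccl22 is on the plus strand at chr8:97274710-97274728, that of Cxcr6 on the plus strand at chr9:123720666-123720684, that of Ccl9 on the minus strand at chr11:83387428-83387446, and that of Cxcl9 on the minus strand at chr5:92751360-92751378. The match in Cxcl12 is on the plus strand at chr6:117129898-117129916.
Ccl22: ggtattATAAGCTatagtt
Cxcr6: gaataaATAAGCTgaattt
Ccl9: tttttgATAAGCTgaccat
Cxcl9: agaaacATAAGCTtacatg
Cxcl12: gggaagTAAGCTAcagaaa
The match in Ccl22 is also followed by A, which makes it an 8mer. Of these 5 members, Ccl22 and Cxcr6 were lower in miR-21-/- glands by 2-fold or more, and the ratios of Ccl9, Cxcl9 and Cxcl12 stayed under 2-fold, as did those of Ccl25 and Cxcl10. Ccl2, Ccl7 and Cxcl15, the members above 5 FPKM that were at least 2-fold higher in miR-21-/- glands, held no match in their annotated 3′ UTRs.

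Of the 56 members, 23 exceeded 5 FPKM in at least 1 genotype, 13 reached 1 to 5 FPKM, 17 lay between 0 and 1 FPKM, and Ccl26, Ccl28 and Cxcr1 were listed at 0 in both. The line named Ccl28 lies on unplaced sequence of chromosome 13. Summed over all members, the level was 533 FPKM with miR-21 and 594 FPKM without it. Cxcl12, Ccl6, Ccl11 and Ccl8 together made up 55.4% of the first sum and 55.1% of the second. The plot of member levels by role shows how few members hold most of the chemokine transcript, and that the members far apart between genotypes lie at lower levels.

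**Figure D1:**
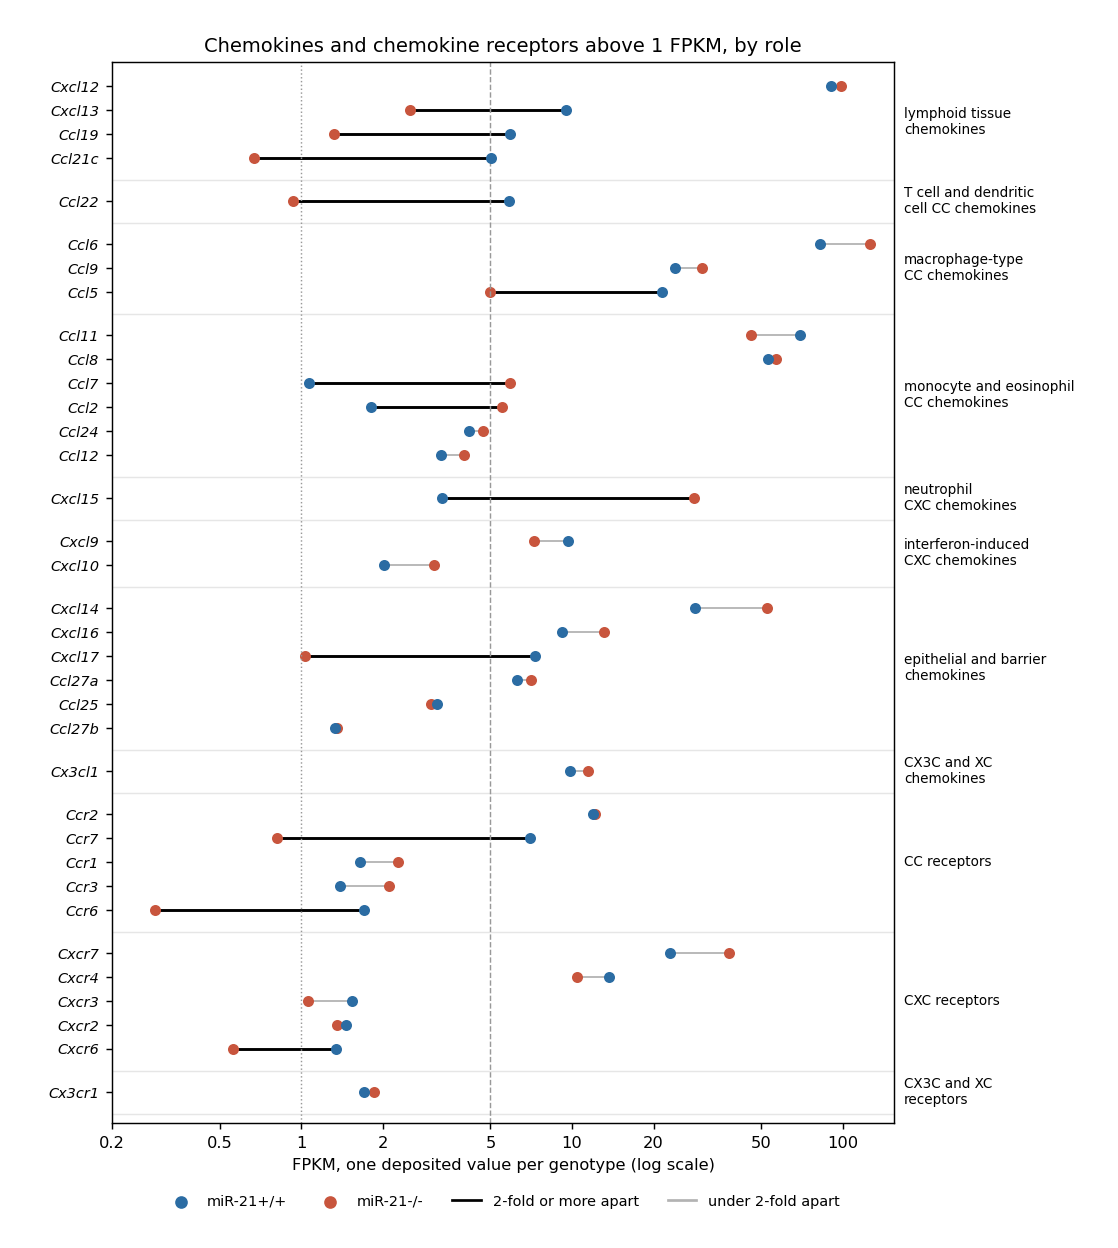
Levels in FPKM on a log axis of 35 members above 1 FPKM in at least 1 genotype, in miR-21+/+ (blue) and miR-21-/- (red) glands, grouped by role, with a line joining the 2 values of a gene. The dotted and dashed lines mark 1 and 5 FPKM, and every black line, joining values 2-fold or more apart, ends below 5 FPKM in at least 1 genotype.

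Among the 23 members above 5 FPKM, 3 (13%) were 2-fold or more higher in miR-21-/- glands and 7 (30.4%) were 2-fold or more lower. Over all 10158 named genes above this level the shares were 1.21% and 1.41%, or 2.62% in either direction against 43.5% of the members. The median log2 ratio of the 23 members was 0.10 and that of all these named genes was −0.03. The 7 lower members were Ccr7, Ccl21c, Cxcl17, Ccl22, Ccl19, Ccl5 and Cxcl13, and the 3 higher ones were Cxcl15, Ccl7 and Ccl2. All 10 exceeded 5 FPKM in only 1 genotype, and a gene that passes the minimum through 1 genotype alone has values on both sides of it, so these counts are a description only. None of the 13 members above 5 FPKM in both genotypes was 2-fold apart. Of the 9488 named genes above 5 FPKM in both, 58 were 2-fold higher and 62 were 2-fold lower. When the mean of both genotypes had to exceed 5 FPKM, a rule added after the values were seen, Cxcl15 was higher and Ccl5 and Cxcl13 were lower among 16 members, against 0.924% and 1.06% of named genes, or 1.98% in either direction. With the mean above 1 FPKM, all 10 passed among 34 members, against 1.66% of named genes higher, 2.1% lower and 3.76% in either direction. Of the 13 members whose higher value was 1 to 5 FPKM, 0 were 2-fold higher and 2 (15.4%), Ccr6 and Cxcr6, were 2-fold lower, against 4.27%, 5.38% and, in either direction, 9.65% of named genes in this band.

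**Figure D2:**
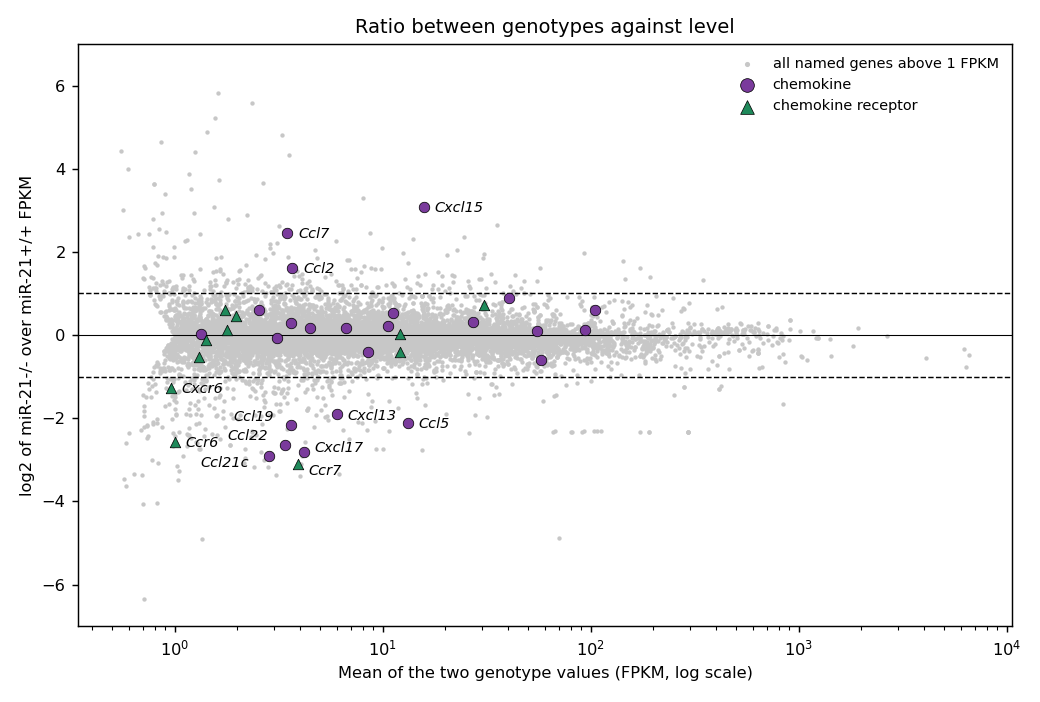
The log2 ratio of miR-21-/- over miR-21+/+ FPKM against the mean of both values (log axis) for named genes above 1 FPKM in at least 1 genotype (grey), chemokines (circles) and receptors (triangles), without genes at 0 in 1 genotype. Dashed lines mark 2-fold, and the 12 labelled members lie outside them, from −3.10 for Ccr7 to 3.09 for Cxcl15.

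The lymphoid tissue chemokines moved apart from each other. Ccl19, which attracts naive T cells and mature dendritic cells to the T cell zone, was 5.92 FPKM in miR-21+/+ and 1.33 FPKM in miR-21-/- glands, a log2 ratio of −2.16. Ccl21c, a copy of the other Ccr7 chemokine, was 5.02 and 0.667 FPKM (−2.91). Cxcl13, which draws B cells into follicles, was 9.47 and 2.53 FPKM (−1.90). All 3 were lower without miR-21, whereas the fourth, Cxcl12, a stromal chemokine made widely outside lymphoid tissue as well, was the highest member of the miR-21+/+ gland at 90.4 FPKM and stood at 98.1 FPKM in miR-21-/- glands. Its log2 ratio of 0.12 lay well inside the range from −0.54 to 0.49 that held the middle of the named genes, between their 5th and 95th percentiles.

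Ccr7, the receptor of Ccl19 and Ccl21, was 6.98 FPKM in miR-21+/+ and 0.817 FPKM in miR-21-/- glands. Its log2 ratio of −3.10, an 8.55-fold lower value, ranked 6 from the lowest of the 10158 named genes above 5 FPKM, and that of Ccl21c ranked 8. Both genes exceeded 5 FPKM only in miR-21+/+ glands, so these ranks are a description only. Ccr7 lies on chromosome 11 from 99005513 to 99016391 in mm9. Cxcr5, the receptor of Cxcl13, was 0.0970 and 0.00669 FPKM, with an estimate the authors' table lists as failed, so the partner of Cxcl13 could not be followed at this depth.

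The Ccl21 values are uncertain because the gene has near-identical copies on chromosome 4. The table lists Ccl21c with the same values on 2 lines, and Ccl19 likewise, and names neither Ccl21a nor Ccl21b. A line named Gm1987, at chr4:42786392-42787525 in mm9, has exactly the annotated ends of Ccl21a, and it was 11.2 FPKM in miR-21+/+ and 1.11 FPKM in miR-21-/- glands (−3.33). This is not a member by name and was singled out after its value was seen. The coding sequences of Ccl21a and Ccl21b differ at 2 of 402 bases, T84A and C194T, counted from the start codon with the Ccl21a base first. Stretches around both are shown, with the differing base in capitals, because a read of coding sequence that covers neither base fits both copies. The first stretch lies in 1 exon, on the minus strand at chr4:42787269-42787289 for Ccl21a and on the plus strand at chr4:41774440-41774460 for Ccl21b, and the second crosses an exon junction.
Ccl21a, first stretch: atggagggggTcaggactgct
Ccl21b, first stretch: atggagggggAcaggactgct
Ccl21a, second stretch: atcctgttctCaccccggaag
Ccl21b, second stretch: atcctgttctTaccccggaag
The longest transcripts of Ccl21b and Ccl21c did not differ at any aligned base, and those of Ccl21a and Ccl21b were 99.3% identical, with 6 differences of which the other 4 lie outside the coding sequence. Both groups of copies were lower in miR-21-/- glands, but how the authors' program divided shared reads between them is not given in the sources used here.

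Ccl22, which attracts Ccr4-bearing T cells and is made by dendritic cells and macrophages, was 5.84 FPKM in miR-21+/+ and 0.930 FPKM in miR-21-/- glands (−2.65). Ccl17, the other Ccr4 chemokine, which lies near Ccl22 with Cx3cl1 between them, was 0.280 and 0.303 FPKM. Ccr4 was also low, at 0.321 and 0.0580 FPKM, as was Ccr8, at 0.351 and 0.0217 FPKM. Low values recur at steps that give about 1 read for a product of FPKM and transcript length in nt near 20.7 for the miR-21+/+ column and near 25.2 for the other. By this approximate conversion, Ccl22 rested on about 626 and 82 reads, Ccr4 on about 43 and 6, and Ccr8 on about 20 and 1, so no fold is given for the last pair. Ccl1, a chemokine of Ccr8, was 0.184 and 0.0960 FPKM.

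The macrophage-type CC chemokines divided in the same way. Ccl6, a CC chemokine of myeloid cells in rodents, was 82.6 FPKM in miR-21+/+ and 126 FPKM in miR-21-/- glands and was the highest member there. Its relative Ccl9 was 24.0 and 30.1 FPKM. Both ratios were under 2-fold, with log2 values of 0.61 and 0.33. Ccl5, also called RANTES and made in quantity by activated T and natural killer cells, was 21.5 and 4.97 FPKM (−2.11), from about 694 and 132 reads. It was the most abundant of the members that differed by 2-fold in miR-21+/+ glands. Ccl3 and Ccl4, the macrophage inflammatory proteins, stayed under 0.2 FPKM in both genotypes, at 0.0790 and 0.196 FPKM for Ccl3 and at 0.162 and 0.141 FPKM for Ccl4.

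Ccl2 and Ccl7, which draw monocytes from the blood through Ccr2, were the CC chemokines above 5 FPKM that were 2-fold or more higher without miR-21. Ccl2 was 1.81 FPKM in miR-21+/+ and 5.54 FPKM in miR-21-/- glands (1.61), and Ccl7 was 1.07 and 5.89 FPKM (2.46). These rest on about 96 and 241 reads for Ccl2 and about 41 and 187 for Ccl7. Ccl7 had the 7th highest log2 ratio of the named genes above 5 FPKM, and Ccl2 the 30th. Both genes exceeded 5 FPKM only in miR-21-/- glands, so these ranks are a description only. Ccl12 and Ccl8, further members of the same family in mouse, did not reach 2-fold, at 3.29 and 3.99 FPKM and at 53.0 and 56.7 FPKM. Ccl11, the eotaxin of the gland, was 69.7 and 45.7 FPKM (−0.61), and the second eotaxin, Ccl24, was 4.18 and 4.71 FPKM.

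Cxcl15, a chemokine with the ELR motif known as lungkine from its airway epithelium, had the largest ratio of all members upwards. It was 3.31 FPKM in miR-21+/+ and 28.2 FPKM in miR-21-/- glands, an 8.51-fold higher value (log2 ratio 3.09) that ranked 4 among named genes above 5 FPKM. The value rests on about 341 and 2378 reads, and the gene lies on chromosome 5 from 91223435 to 91235395 in mm9. Cxcl15 exceeded 5 FPKM only in miR-21-/- glands, so its rank is a description only. The neutrophil attractants beside it were low: Cxcl1 was 0.611 and 0.673 FPKM, and Cxcl2, Cxcl3 and Cxcl5 were each under 0.2 FPKM in both genotypes. Cxcr2, the neutrophil receptor for this group, was 1.47 and 1.36 FPKM, and Cxcr1 was listed at 0. Of these 5 neighbouring members by name, only Cxcl15 exceeded 1 FPKM.

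Many inflammatory chemokines are known to have short-lived transcripts, and the nonamer TTATTTATT, an element of unstable mRNAs, was searched for on the sense strand of their 3′ UTRs. It was present in 4 of 34 chemokines with a 3′ UTR (11.8%), namely Cx3cl1, Cxcl1, Cxcl2 and Cxcl3, and in 0 of 19 receptors, or 7.55% of all members with a 3′ UTR, against 6.46% of all genes of the table. Of these, only Cx3cl1 exceeded 1 FPKM, so at that level the share was 1 of 36 members (2.78%) against 7.16% of genes. One of the copies in Cxcl1, on the plus strand at chr5:91321645-91321665 in mm9, is shown with 6 bases on either side and the nonamer in capitals.
Cxcl1: atgtatTTATTTATTccacaa
Cxcl15 held no copy, nor did any of the other 9 members above 5 FPKM that were 2-fold apart.

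The interferon-induced CXC chemokines, which attract Cxcr3-bearing T cells, stayed under 2-fold in the values as deposited. Cxcl9 was 9.68 FPKM in miR-21+/+ and 7.26 FPKM in miR-21-/- glands, Cxcl10 was 2.02 and 3.08 FPKM, and Cxcl11 was 0.308 and 0.402 FPKM. Cxcl10 shares exon sequence with Art3 on the opposite strand, and without strand information those reads cannot be told apart. Cxcr3 was 1.54 and 1.06 FPKM.

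Among the chemokines of epithelia and barriers, only Cxcl17 passed 2-fold. Cxcl17, a mucosal chemokine of glandular epithelium, was 7.32 FPKM in miR-21+/+ and 1.04 FPKM in miR-21-/- glands (−2.82), from about 270 and 31 reads. Cxcl14, made by epithelial cells and fibroblasts, was 28.6 and 52.6 FPKM (0.88), the largest ratio upwards of any member above 1 FPKM that stayed under 2-fold. Cxcl17 and Cxcl15, both known from glandular and mucosal epithelium, thus lay at opposite ends. Cxcl16, the membrane-bound chemokine of Cxcr6, was 9.16 and 13.2 FPKM on a line merged with Zmynd15. Ccl27a, a skin chemokine whose exons overlap Il11ra1, was 6.26 and 7.06 FPKM, and Ccl27b was 1.34 and 1.35 FPKM on merged lines. Ccl25, the thymus and gut chemokine, was 3.17 and 3.01 FPKM.

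Cx3cl1, or fractalkine, a membrane-anchored chemokine of endothelium and epithelium, was 9.82 FPKM in miR-21+/+ and 11.4 FPKM in miR-21-/- glands. Its receptor on monocytes and macrophages, Cx3cr1, was 1.71 and 1.85 FPKM. Xcl1, a product of natural killer and CD8 T cells, was 0.579 and 0.319 FPKM. Xcr1, its receptor on cross-presenting dendritic cells, was 0.601 and 0.368 FPKM.

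Of the 19 receptors, 12 exceeded 1 FPKM in at least 1 genotype. The 3 of them that were 2-fold or more apart, Ccr7, Ccr6 and Cxcr6, were lower in miR-21-/- glands, or 25% of the 12, against 2.47% of all 13878 named genes above 1 FPKM. All 3 passed 1 FPKM only through the miR-21+/+ value, so the share is a description, and with the mean of both genotypes above 1 FPKM only Ccr7 was counted. No receptor above 1 FPKM was 2-fold higher, against 2.03% of those genes. Ccr6, a receptor of B cells and T helper cells, was 1.71 FPKM in miR-21+/+ and 0.289 FPKM in miR-21-/- glands (−2.56), from about 145 and 20 reads. Cxcr6, a receptor of resident and memory T cells and of natural killer cells, was 1.35 and 0.562 FPKM (−1.26), from about 123 and 42 reads. Ccr9, the gut-homing receptor for Ccl25, was low, at 0.636 and 0.166 FPKM, and Ccr10, a skin-homing receptor, was 0.380 and 0.253 FPKM.

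The receptors Ccr2, Ccr3 and Ccr1, best known from monocytes, macrophages and granulocytes, stayed within 2-fold. Ccr2, on inflammatory monocytes, was 12.0 FPKM in miR-21+/+ and 12.1 FPKM in miR-21-/- glands. Ccr3, the eotaxin receptor of eosinophils, was 1.39 and 2.10 FPKM. Ccr1, a receptor of Ccl9 among others, stands on 2 lines, one with 1.65 and 2.27 FPKM and one with 0.512 and 0.260 FPKM, which differ in the sign of the ratio. The abundant receptors were those of Cxcl12, with Cxcr7, a scavenger of that chemokine, at 23.1 and 38.1 FPKM (0.72) and Cxcr4, the signalling receptor, at 13.7 and 10.4 FPKM (−0.40).

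Values of chemokines were then set beside those of their receptors in 30 pairs written from general knowledge. Of these, 14 had both partners above 1 FPKM. The list is not complete, and Ccl5, which was more than 2-fold lower, is in none of its pairs. The counts below therefore describe the listed pairs only. Both partners were 2-fold or more lower in miR-21-/- glands in 2 pairs, Ccl19 with Ccr7 and Ccl21c with Ccr7, which share the receptor. In no pair were both 2-fold higher, or 2-fold apart in opposite directions. For 2 pairs only the chemokine differed by 2-fold, namely Ccl2 and Ccl7, both higher, with Ccr2. Only the receptor did so for Cxcl16 with Cxcr6, and neither did for the other 9 pairs. A chemokine and its receptor are usually made by different cells, so these are levels of the whole tissue side by side.

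**Figure D3:**
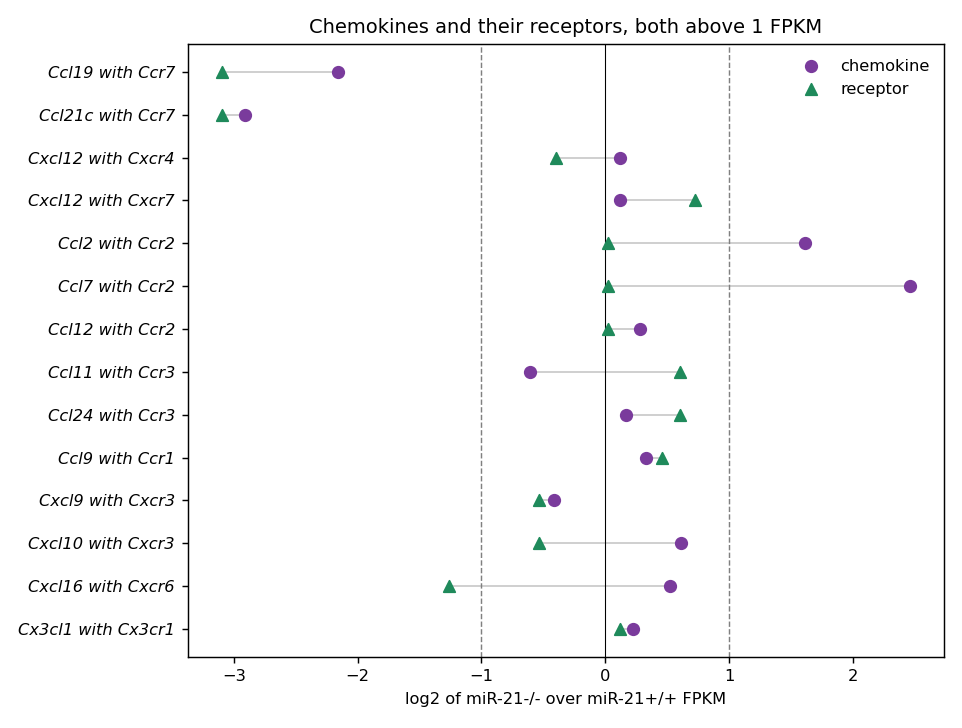
Log2 ratios of miR-21-/- over miR-21+/+ FPKM for the chemokine (circle) and receptor (triangle) of the 14 pairs with both partners above 1 FPKM, with dashed lines at 2-fold. Both symbols lie left of −1 for the 2 pairs with Ccr7, while Ccr2 lies near 0 beside Ccl2 and Ccl7 at 1.61 and 2.46.

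Many chemokine genes arose by duplication and sit side by side, and 7 groups of at least 3 members with gaps of at most 500 kb were found. Members past 2-fold often lay beside members under it, and in some groups adjacent members shared a direction. On chromosome 11, between 81849079 and 81993314 in mm9, Ccl2 and Ccl7 were the first genes in the order and were higher, while Ccl11, Ccl12 and Ccl8 next to them had log2 ratios of −0.61, 0.28 and 0.10. Between 83339281 and 83478185 on the same chromosome, Ccl5 was lower beside Ccl9 and Ccl6. On chromosome 8, between 97269584 and 97335936, Ccl22 was lower, while Cx3cl1 had a log2 ratio of 0.22. On chromosome 5, between 91188325 and 91334964, Cxcl15 was the only one of the 5 members by name that reached 1 FPKM.

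In the receptor group of chromosome 9, from 123676329 to 124028205, Cxcr6 was lower, between Ccr9 and Xcr1, which did not exceed 1 FPKM and whose values are given above, with Ccr9 at about 92 and 20 reads. Ccr1, Ccr3 and Ccr2, which follow in the order, had log2 ratios of 0.46, 0.60 and 0.02. On chromosome 4, Ccl21c and Ccl19 were lower, and Ccl27a and Ccl27b of the same group had log2 ratios of 0.17 and 0.01. Ccl19 is listed with equal values from 42248504 and from 42768057, and Ccl27b from 42339259 and from 42664136. The order of Ccl19 and Ccl27b therefore depends on the line used.

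**Figure D4:**
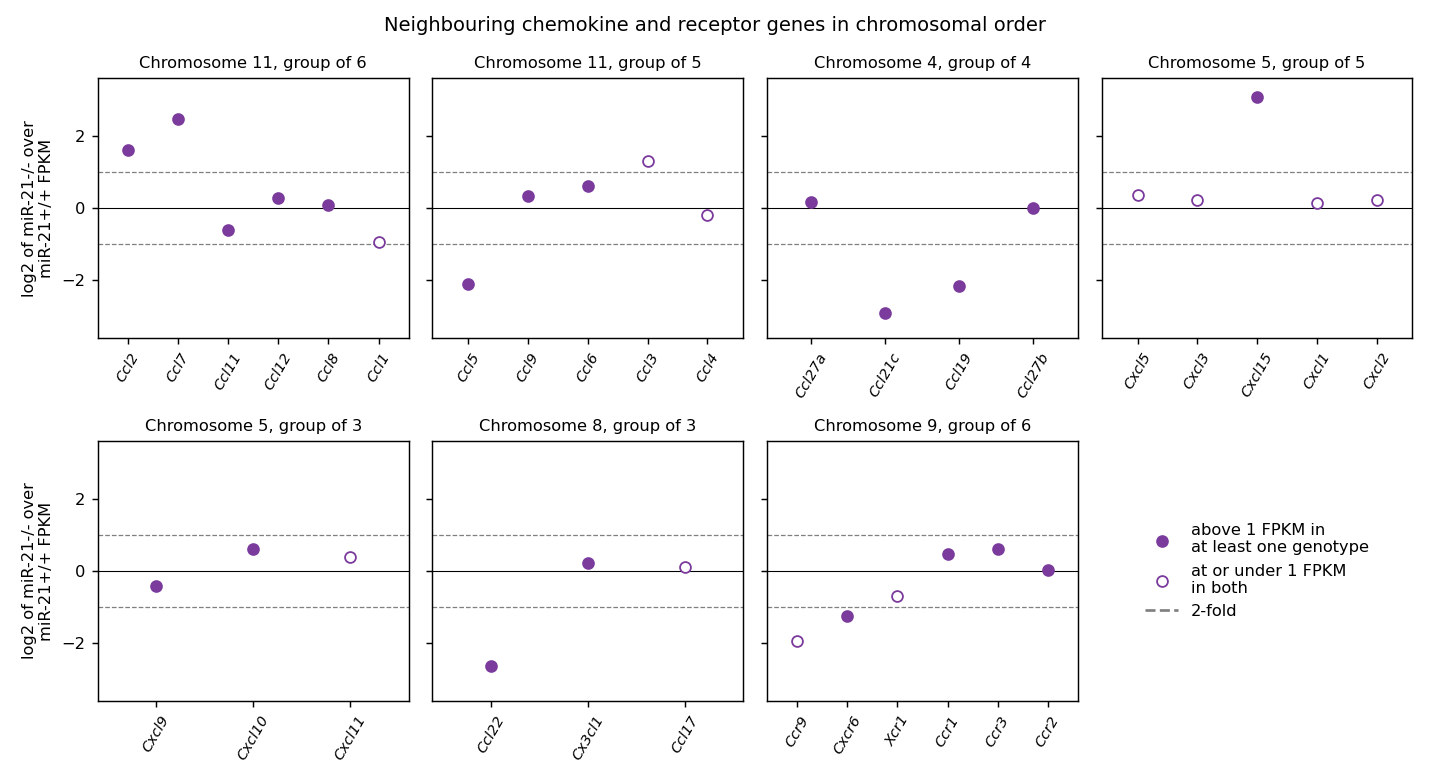
Log2 ratios of miR-21-/- over miR-21+/+ FPKM of neighbouring members in chromosomal order, 1 panel for each of 7 groups, with filled circles above 1 FPKM in at least 1 genotype, open circles at or under it, and dashed lines at 2-fold. Ccl2 and Ccl7, Ccl5, Ccl22, Cxcl15, and Ccl21c with Ccl19 lie outside the dashed lines beside neighbours that lie inside them. Ccl19 and Ccl27b, each listed at several places, are drawn at the place of 1 line.

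Promoter windows from RefSeq (GRCm38.p6), from 250 bases before to 50 after the start, were matched for 40 members. The motif TTCNNNGAA, which STAT proteins recognise, was searched for because the study placed miR-21 downstream of STAT5. It reads the same on both strands and was found in the windows of 3 members (7.5%), namely Ccl17, Ccr6 and Cxcl14, against 9.55% of 27025 genes. Of these, Ccr6 was past 2-fold, and its window holds the motif in 2 places, on the plus strand at chr17:8235880-8235900 and chr17:8235917-8235937 of GRCm38.p6, here with 6 bases on either side and the motif in capitals.
Ccr6, first: ccccctTTCAAAGAActttac
Ccr6, second: tgtaatTTCCAAGAAtcaaga

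Among listed genes of the machinery around chemokines, none above 1 FPKM passed 2-fold. Of 22 listed genes of chemokine receptor signalling, 21 exceeded 1 FPKM and 0 passed 2-fold, with log2 ratios from −0.90 to 0.48. At the low end were leukocyte genes, namely the small GTPase Rac2, with 22.9 FPKM in miR-21+/+ and 12.3 FPKM in miR-21-/- glands, and the actin regulator Coro1a, with 44.2 and 25.2 FPKM. Vav1, Dock2 and Was followed with log2 ratios of −0.77, −0.68 and −0.60, and the median of the list was −0.15. The G protein subunits Gnai2 and Gnai3, through which the conventional chemokine receptors signal, had log2 ratios of 0.04 and −0.01. Of 11 genes that cut, shed or present chemokines, 10 exceeded 1 FPKM and 0 passed 2-fold, with the proteoglycan Sdc1 lowest at −0.90. Of 7 platelet chemokines and scavenging receptors in the table, 6 exceeded 1 FPKM and 0 passed 2-fold. Over named genes above 1 FPKM, 4.5% passed 2-fold in either direction, a share that amounts to few genes or none in lists of this size.

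Markers of the cells that make or receive these chemokines were read in the same columns, from lists chosen with earlier results of these data known. Of 9 B cell markers, 8 were 2-fold or more lower in miR-21-/- glands, and the ninth, Cd79a, stands on a line merged with Arhgef1. The sum over the unmerged B cell markers was 39.8 FPKM in miR-21+/+ and 5.81 FPKM in miR-21-/- glands, with Ms4a1 at 5.61 and 0.549 FPKM and Cr2, of follicular B cells, at 1.91 and 0.170 FPKM. All 10 T cell markers were 2-fold or more lower, and their sum was 50.6 and 11.6 FPKM, with Cd3e at 7.26 and 1.22 FPKM. These markers moved beside the lower values of Ccr7, Ccr6, Cxcr6, Ccl5, Ccl19, Ccl21c, Cxcl13 and Ccl22. Cxcr3, a receptor of T cells, stayed under 2-fold, with a log2 ratio of −0.54. The part of the B and T cell markers in the values of these members was not tested. Markers of other lymphoid and myeloid sources of these genes were mixed. Of 3 natural killer cell markers above 1 FPKM, Nkg7 was 3.50 and 1.38 FPKM, Gzma 1.01 and 1.51 FPKM, and Gzmb 0.529 and 1.09 FPKM. Their median log2 ratio was 0.58, and Gzmb passed 1 FPKM only through the miR-21-/- value. Below 1 FPKM in both genotypes, Prf1, Ncr1 and Klrb1c had log2 ratios of −1.64, −0.85 and −0.23. Of 5 dendritic cell markers, with a median of −0.19, only Flt3 passed 2-fold. It was 1.09 and 0.465 FPKM and passed 1 FPKM only through the miR-21+/+ value. In whole tissue, fewer cells of a type and less RNA per cell cannot be told apart.

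Markers of the venules and stroma of lymph nodes went in both directions. Glycam1, a sialomucin of high endothelial venules that mammary epithelium also secretes, was 136 FPKM in miR-21+/+ and 4.63 FPKM in miR-21-/- glands. Chst4, a sulfotransferase of the same venules, was 0.571 FPKM and listed at 0. Also below 1 FPKM in both genotypes, Fut7 was 0.675 and 0.217 FPKM and Tnfsf11 was 0.263 and 0.554 FPKM. Among the 5 of the 8 listed genes above 1 FPKM, 1 was 2-fold lower (Glycam1) and 1 was 2-fold higher (Madcam1, an addressin, at 0.576 and 1.56 FPKM). Madcam1 passed 1 FPKM only through the miR-21-/- value. Of 4 lymphatic endothelium markers above 1 FPKM, Lyve1 was 2-fold higher, at 19.6 and 42.7 FPKM, and 0 were 2-fold lower. The median log2 ratio of these 4 was 0.59. Prox1 and Mmrn1, below 1 FPKM in both genotypes, had log2 ratios of −0.49 and −0.33. The part of the listed genes in the lower values of the lymphoid chemokines was not tested either.

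By their medians, the myeloid and epithelial lists were closer between genotypes than the B and T cell lists. None of 7 macrophage markers passed 2-fold (median log2 ratio −0.02), and Csf1r was 53.9 and 52.2 FPKM beside the higher values of Ccl2 and Ccl7. That median is the value of Cd68, on a line merged with Eif4a1 and Senp3. The macrophage list ranged from −0.45 for Cd163 to 0.75 for Cd14. Of 4 neutrophil markers above 1 FPKM, S100a9 was 2.24 FPKM in miR-21+/+ and 0.695 FPKM in miR-21-/- glands and Retnlg was 6.10 and 12.1 FPKM, beside the higher value of Cxcl15. Ngp and Mpo, below 1 FPKM in both genotypes, were lower at 0.280 and 0.0404 FPKM and at 0.133 and 0.0230 FPKM. Of 2 eosinophil markers above 1 FPKM, Ear1 was 1.07 and 1.22 FPKM and Prg2 was 0.236 and 1.26 FPKM. Their median log2 ratio was 1.31, and Prg2 passed 1 FPKM only through the miR-21-/- value. Below 1 FPKM in both genotypes, Siglec5 and Il5ra had log2 ratios of 0.32 and −0.26, and Epx was 0.0119 and 0.0198 FPKM. Luminal epithelial markers had a median log2 ratio of 0.50, with Krt8 at 119 and 197 FPKM, but Esr1 was 17.7 and 12.5 FPKM and the milk protein gene Csn2, the only one past 2-fold, was lower at 14.8 and 7.21 FPKM. Myoepithelial markers had a median of 0.73, with Acta2 at 222 and 341 FPKM, and only Oxtr passed 2-fold, at 17.5 and 48.7 FPKM. Skeletal muscle markers, from a tissue that adjoins some glands, had a median log2 ratio of 0.79 and ranged from 0.48 to 1.86. Only Mb of this list passed 2-fold, at 2.07 and 7.54 FPKM. The part of the epithelial and muscle lists in the values of Cxcl15 and Cxcl14, which were higher, and of Cxcl17, which was lower, was not tested. Keratins, Csn2 and the adipocyte gene Adipoq were present in both columns, as the labelled tissue would have.

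**Figure D5:**
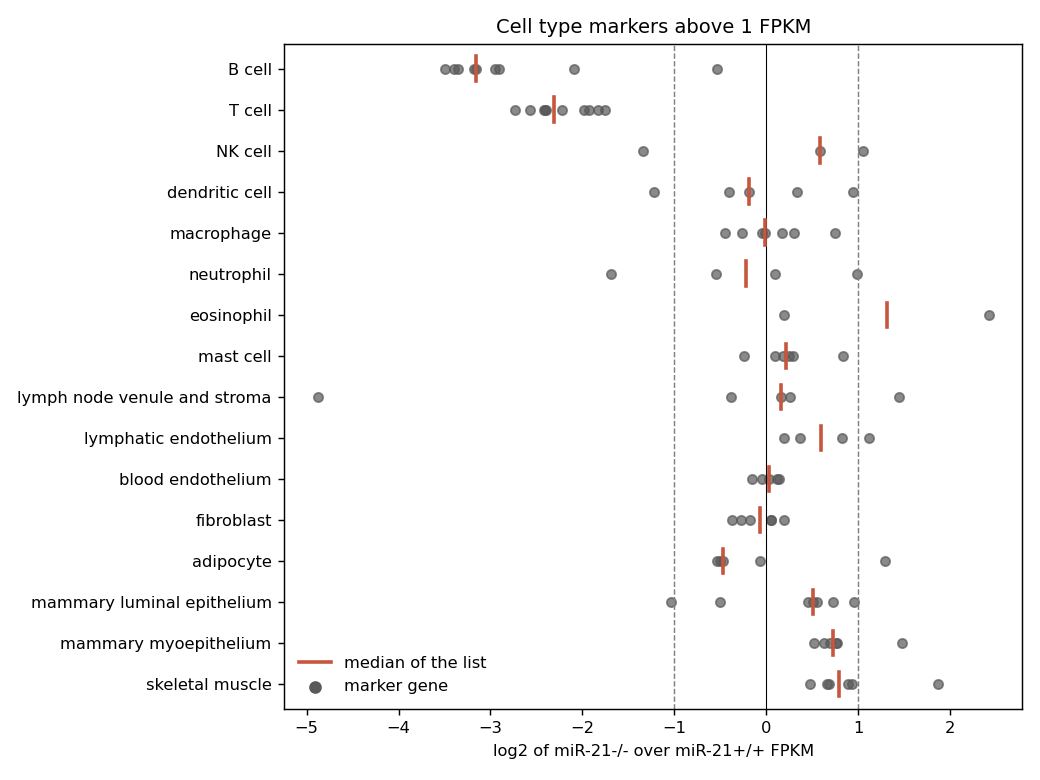
Log2 ratios of miR-21-/- over miR-21+/+ FPKM for markers above 1 FPKM of 16 cell types (grey points), with the median of each list in red, without markers at 0 in 1 genotype, and dashed lines at 2-fold. The B and T cell medians lie at −3.16 and −2.31, and the macrophage median at −0.02.

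The targeted locus does not check the genotype labels, since the table merges Mir21 with its host gene Vmp1 at chr11:86397276-86497345 and poly(A) RNA reads the long transcript. That line was 42.5 FPKM in miR-21+/+ and 68.2 FPKM in miR-21-/- glands. The FPKM columns summed to 759295 and 1175603 over all lines, but to 380567 and 355385 over lines with a gene name. Scaling to equal sums over all lines would lower every log2 ratio by 0.63, which would place Ccl6 at −0.02 and the median of the 23 members at −0.53. Under it Ccl7 and Cxcl15 remained 2-fold higher, Ccl2 did not, and the 7 lower members remained 2-fold lower. Ccl11, Cxcl9 and Cxcr4, all above 5 FPKM in both genotypes, would join them at −1.24, −1.05 and −1.03, which makes 10 lower members. The direction of a difference under 2-fold can therefore depend on the scaling, as it does for Ccl6.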

How the data were processed

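Poly(A) RNA of mammary tissue was prepared with a kit that does not mark strand and sequenced as single-end reads. According to the study's methods and the submitters' processing notes (which name CASAVA, TopHat and mm9), TopHat placed the reads on mm9 and Cufflinks gave the authors their FPKM values. The deposited FPKM values are 1 per genotype over its 2 mice and were used as given. Program versions, annotation and normalization options are not given in the sources used here. The authors' table also holds their log2 fold change, test statistic, p-value, q-value and a significance mark, none of which was used. All columns of FPKM values were mapped, and 0 were left out.

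Log2 ratios were computed without a pseudocount. A member was called past 2-fold when it exceeded 5 FPKM in at least 1 genotype, following the minimum in the study's methods, or 1 FPKM where said. With 1 value per genotype no test was possible and p-values are absent. The members follow from a rule on gene names, but the choice of this gene family and of the lists was made with earlier results of these data known. Text names every member above 1 FPKM apart from 1 that is counted but not reported here, with others by level, and list genes on which a result turns. Low values times transcript length gathered at a step in 19.1% (miR-21+/+) and 18.7% (miR-21-/-) of 760 and 696 low genes with 1 transcript, taken as about 1 read. The reads are approximate and were used in no count model. Counting was tested on simulated data. Table starts count from 0 (8351 annotated starts matched after adding 1, 487 as printed) and are printed from 1. Transcripts, 3′ UTRs and mm9 sequence came from GENCODE and the NCBIM37 genome. MicroRNA and promoter sequences came from RefSeq. The longest annotated transcript or 3′ UTR of a gene was used. Alternatives were other minimums, fold limits, pseudocounts of 1 and 0.1, 3 scalings and leaving out merged lines. Calculations used Python 3.11.15, numpy 2.4.6, pandas 2.3.3 and matplotlib 3.10.9.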

Additional observations from a re-analysis of the deposited data

How the results depend on the processing

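With more than 5 FPKM required in both genotypes, 0 of 13 members were 2-fold higher and 0 lower in miR-21-/- glands. Of 9488 named genes, 58 and 62 were. With the mean of both genotypes above 5 FPKM, an alternative chosen after seeing the data, 1 of 16 members was higher and 2 were lower. With the mean above 1 FPKM, 227 of 13636 named genes were higher and 286 lower. With more than 1 FPKM in at least 1 genotype, 282 of 13878 named genes were higher and 343 lower. With more than 0 in both genotypes, 4 of 52 members were higher and 13 were lower. Of 18306 named genes, 835 and 897 were higher and lower. At a limit of 1.5-fold, 6 of 23 members were higher and 8 were lower. Of 10158 named genes, 383 and 437 were higher and lower, and at 3-fold these were 36 and 67. Equal sums over all lines moved the member median to −0.53, with 2 of 23 members higher and 10 lower. Of 10158 named genes, 28 were then higher and 933 lower. Pseudocounts of 1 and 0.1, the other scalings and leaving out merged lines kept the same 10 members. No paired analysis was possible because both mice of a genotype share 1 value, so leaving out a mouse could not be run either. Depth limits the lowest members most: the miR-21-/- values of Ccr8 and Cxcr5 rest on about 1 read each.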
